A study of Mus musculus with 8 samples.

Results

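The ISG15 system was described through 5 genes: Isg15, which encodes the modifier, Uba7, Ube2l6 and Herc6, which encode the enzymes that attach it, and Usp18, which encodes the protease that takes it off. Members were the probes that carry one of these gene names in the scanner files. They came to 7 of the 20306 probes kept and to 5 of the 16153 genes tested. All 7 probes were well above background on all 8 arrays by the scanner software's mark, so every member passed the filter on dim probes in every group.

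ISG15 is a ubiquitin-like protein that cells make after type I interferon, and it is joined to lysines of other proteins through a chain of 3 enzymes. UBA7 (also called UBE1L) activates it, UBE2L6 (UBCH8) receives it, and a HECT ligase passes it to the target. HERC6 is the main such ligase in the mouse, where HERC5 is in humans. USP18 (UBP43) cleaves ISG15 from its targets and, apart from that, binds the IFNAR2 chain of the interferon receptor and dampens its signalling. Interferon acts through IFNAR1 and IFNAR2, the kinases JAK1 and TYK2, and ISGF3, a transcription factor complex with STAT2 and IRF9 among its subunits that binds the interferon-stimulated response element in promoters. Macrophages respond strongly to interferon and express these genes. The arrays measured transcripts only, and no ISG15 conjugate was measured.

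The cells were C10, a derivative of the mouse pre-B line HAFTL that carries an inducible form of C/EBPα, a transcription factor that turns B-lineage cells into macrophage-like cells. The 4 groups, each with 2 arrays, were the line labelled Tet2 knockdown at 24 h and at 0 h of induction and the line with a control short hairpin RNA at 24 h and at 0 h. The 24 h groups had received 100 nM estradiol with IL-3 and M-CSF at 10 ng/ml each, and the 0 h groups had not. Both lines carried the C/EBPα transgene and grew in puromycin. The 2 arrays of a group are technical duplicates per the series design, so the p-values and errors cover only how far duplicate arrays lie apart, and no spread between cultures or between independent knockdown lines could be given. Tet2 encodes a dioxygenase that oxidises methylated cytosine. Its transcript in the line labelled knockdown was 100% of control at 24 h (log2 difference 0.01 ± 0.10, SE, adjusted p = 0.98) and 92.8% of control at 0 h (-0.11 ± 0.10, adjusted p = 0.53), and a second, dimmer probe gave 112% (adjusted p = 0.49) and 82.1% (adjusted p = 0.23). The label was thus not borne out at the transcript level by either probe, and the line is called by its label throughout.

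Among markers of the labelled cell types, 8 of the 9 macrophage genes tested rose with induction in both lines. Of all genes, 16.7% were called higher with induction in the line labelled knockdown and 14.2% in control. Itgam was called in neither line (0.20, adjusted p = 0.14, in the line labelled knockdown and 0.36, adjusted p = 0.029, in control). Adgre1 did not pass the filter on dim probes. The summed level of the 9 tested genes in the line labelled knockdown was 975 to 1060 at 24 h, against 6.81 to 7.38 at 0 h. In control it was 980 to 1040 at 24 h, against 7.46 to 7.69 at 0 h. The sums are carried by the brightest genes. For the difference of induction 3 of the 9 were called higher, against 2.36% of all genes. They were Fcgr1 (1.36, adjusted p = 0.016), Tyrobp (1.24, adjusted p = 0.0087) and Lyz2 (1.05, adjusted p = 0.0067). Fcgr1, an Fc receptor gene, was also higher at 24 h in the line labelled knockdown than in control (1.15, adjusted p = 0.0096). It was well above background on no 0 h array, so the size of its difference of induction is uncertain. At 0 h Tyrobp (-1.02, adjusted p = 0.005) and Lyz2 (-0.95, adjusted p = 0.0029, short of 2-fold) were lower in the line labelled knockdown. At 24 h neither Tyrobp (0.22) nor Lyz2 (0.10) was called different between the lines. The 10 pre-B genes were well above background in every group. They summed to 539 to 558 at 24 h in the line labelled knockdown, against 664 to 788 at 0 h. In the control line the sum was 375 to 406 at 24 h, against 712 to 777 at 0 h. With induction 4 of the 10 were called lower in the line labelled knockdown and 6 in control, against 15.4% and 13.1% of all genes. At 24 h none of the 10 was called different between the lines (-0.45 to 0.71), although 5 had an adjusted p under 0.05. Of all genes, 1.04% were called higher and 0.997% lower there. In RNA from whole cultures, fewer cells of a type and less RNA per cell cannot be told apart. Lists for T, plasmacytoid dendritic, natural killer, erythroid and stromal cells had 2 tested genes each, and the other genes of these lists were not well above background on both arrays of any group. Of the tested genes, Klrb1c was higher at 24 h in the line labelled knockdown than in control (at least 2.91-fold, adjusted p = 0.015). It was also called for the difference of induction (1.95, adjusted p = 0.022). Klrb1c was well above background on no array of any other group, so the size of that difference is uncertain. The natural killer sum was 0.533 to 0.585 against 0.378 on both control arrays at 24 h, while Ncr1 and Gzmb did not pass the filter. Pdgfrb, of the stromal list, was lower at 24 h in the line labelled knockdown than in control (log2 -1.17, adjusted p = 0.023). No T-cell, dendritic or erythroid gene was called at 24 h between the lines. The part of these marker differences in the results below was not tested.

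Levels are given relative to the array's 75th percentile, which has the value 1, and changes as log2 differences ± the standard error of a limma fit over all 8 arrays. Calls needed both a 2-fold change or more and a p under 0.05 after Benjamini-Hochberg adjustment over 16153 genes. Levels of different probes are not comparable with each other.

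Upstream sequences are shown first, since 4 of the members rose together and many interferon-stimulated genes are known to carry response elements near their start. RefSeq promoters (build GRCm38.p6) were given for Isg15, Uba7, Ube2l6 and Herc6, and none was given for Usp18. Usp18 was among the 4 members that rose, and Herc6 was not. The 250 bases before the annotated start follow, 5′ to 3′ on the strand of the gene, with the repeat unit of the interferon-stimulated response element in capitals (GAAA, or TTTC where it lies on the other strand). They are Isg15 on chr4:156200819-156201068 (minus strand), Uba7 on chr9:107975317-107975566 (plus strand), Ube2l6 on chr2:84798578-84798827 (plus strand) and Herc6 on chr6:57580742-57580991 (plus strand).
Isg15: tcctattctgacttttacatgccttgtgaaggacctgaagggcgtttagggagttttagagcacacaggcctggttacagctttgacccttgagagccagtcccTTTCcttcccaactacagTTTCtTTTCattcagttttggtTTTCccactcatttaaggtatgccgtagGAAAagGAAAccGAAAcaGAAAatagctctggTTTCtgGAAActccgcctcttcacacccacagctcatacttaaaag
Uba7: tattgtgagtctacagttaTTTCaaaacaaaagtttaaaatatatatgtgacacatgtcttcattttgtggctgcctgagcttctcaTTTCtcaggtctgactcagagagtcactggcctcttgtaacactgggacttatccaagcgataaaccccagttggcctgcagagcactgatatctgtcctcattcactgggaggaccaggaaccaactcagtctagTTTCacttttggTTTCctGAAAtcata
Ube2l6: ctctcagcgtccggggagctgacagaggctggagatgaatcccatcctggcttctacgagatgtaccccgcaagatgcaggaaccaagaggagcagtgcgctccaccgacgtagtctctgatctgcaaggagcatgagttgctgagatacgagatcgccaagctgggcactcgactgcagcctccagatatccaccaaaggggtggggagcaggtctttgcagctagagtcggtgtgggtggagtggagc
Herc6: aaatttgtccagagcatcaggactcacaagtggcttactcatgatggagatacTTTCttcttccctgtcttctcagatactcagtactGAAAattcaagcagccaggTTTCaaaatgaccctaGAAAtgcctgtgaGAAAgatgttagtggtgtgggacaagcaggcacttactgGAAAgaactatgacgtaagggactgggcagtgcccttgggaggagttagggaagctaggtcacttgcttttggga

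The Isg15 sequence holds an unbroken run of 4 such units, spaced by a pair of bases each, from position -78 to -57 before the start. The run lies on chr4:156200875-156200896 (minus strand) and reads as follows, with all its letters in capitals.
Isg15 run: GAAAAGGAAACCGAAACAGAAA
It contains 3 overlapping matches to the interferon-stimulated response element, searched as 2 units on the same strand with 2 free bases between them. Of the 32851 promoters in the table (250 bases before and 50 after the start, both strands searched), 3.44% held a match, 0.0152% (5 promoters) held 3 or more, and 1 held this run of letters. Isg15 is among the 5, and the 1 is Isg15 itself, from which the run was taken. The upstream windows of Uba7, Ube2l6 and Herc6 held no match. Over the same 250 bases, the unit occurred 10 times before Isg15, 6 times before Herc6, 5 times before Uba7 and 0 times before Ube2l6, against a median of 2 over all promoters, and 0.356% of promoters had at least as many as Isg15, 8.75% as many as Herc6 and 16.8% as many as Uba7. The other motifs searched on both strands were TTCNNNGAA (STAT element, in 8.3% of promoters), TTGCNNAA (C/EBP element, 10.8%) and the ETS-IRF composite element (2.72%), which is the response element with G as its second letter and can overlap it when shifted. None of the 4 promoters held one of these. CG dinucleotides, the substrate of TET enzymes once methylated, numbered 11 before Ube2l6, 4 before Isg15 and 1 each before Uba7 and Herc6, against a median of 6. A match is a description of letters, and binding and methylation were not measured.

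**Figure D1:**
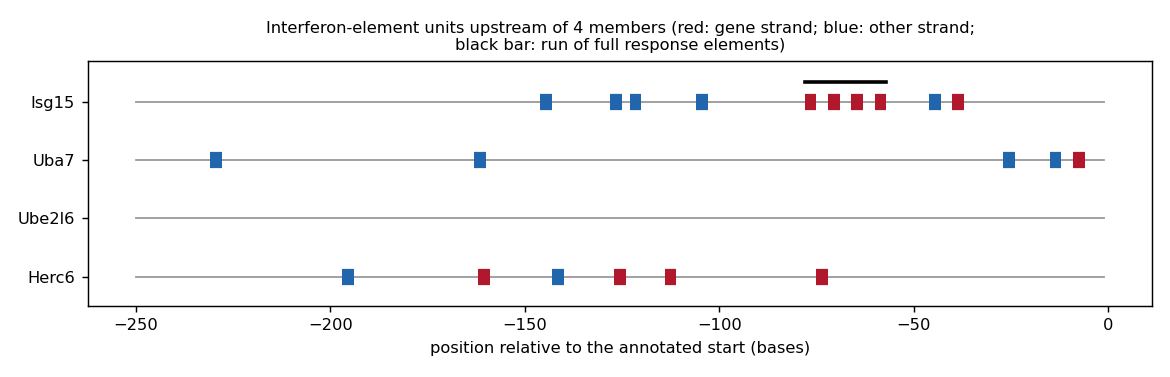
Positions of the response-element unit in the 250 bases before the start of 4 members, in bases from the start. Red marks are on the gene strand, blue marks on the other strand, and the black bar spans the run at -78 to -57. Isg15 has 10 marks, Herc6 6, Uba7 5 and Ube2l6 0.

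Induction raised 4 of the 5 members in both lines, and Herc6 stood apart. In the line labelled knockdown, Usp18, Isg15, Uba7 and Ube2l6 rose by 121-fold, 14.7-fold, 6.32-fold and 5.75-fold. In the control line the same genes rose by 15.3-fold, 2.39-fold, 2.24-fold and 2.13-fold. The size for Usp18 differed with the processing: on the log2 scale it was 6.92 as reported and 5.5 in the deposited value table in the line labelled knockdown, and 3.93 and 2.7 in control. These 4 of 5 members called higher, and 0 called lower, stand against 16.7% of all genes called higher and 15.4% called lower in the line labelled knockdown, and 14.2% and 13.1% in control. Before induction no member was called different between the lines, against 0.334% of all genes called higher and 1.39% called lower. Still, 2 of the 5 (Isg15 and Uba7, both lower) had an adjusted p under 0.05 in the limma fit, short of 2-fold. At any fold, 13.5% of all genes had such a p. At 24 h, 3 of 5 members (Usp18, Isg15 and Ube2l6) were called higher in the line labelled knockdown, against 1.04% of all genes, and none lower, against 0.997%. The 2 inductions were also compared directly, as the difference of the log2 changes, and 4 of 5 members were called more strongly induced in the line labelled knockdown, against 2.36% of all genes, and none less, against 1.46%. That count was 2 of 5 (Usp18 and Isg15) when arrays were scaled to their median, and 3 of 5 without the filter on dim probes. Because the members were picked with results of these data known, these shares describe them and do not test the group, and the comparisons share arrays. The members' median log2 change was 2.66 in the line labelled knockdown, 1.17 in the control line, 1.21 at 24 h between lines, -0.23 at 0 h and 1.49 for the difference, against medians over all genes of 0.14, 0, 0.04, 0 and 0.05.

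**Figure D2:**
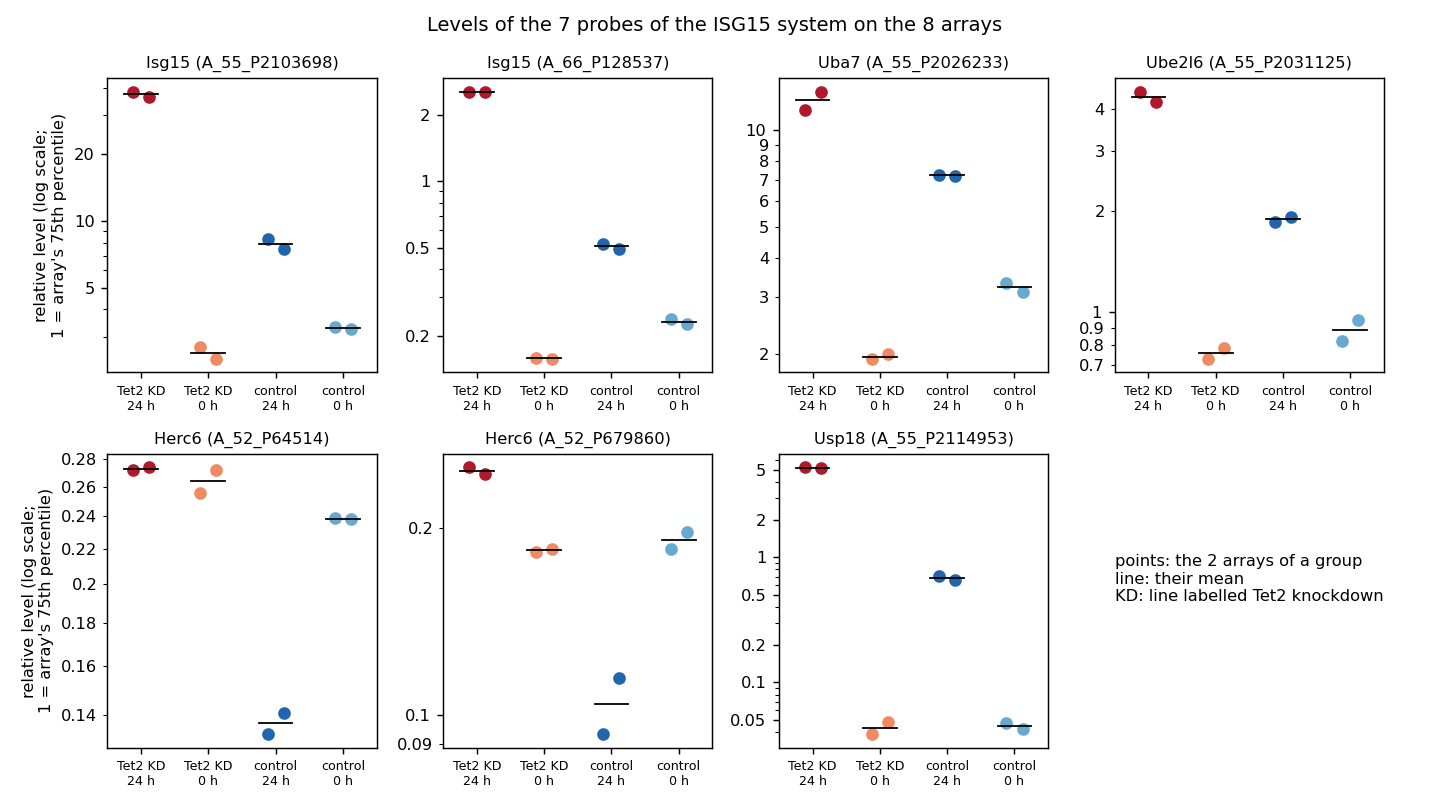
Relative level of each of the 7 probes on each array (log axis, with its own range in each panel; 1 is the array's 75th percentile). Points are the 2 arrays of a group and the line is their mean. Isg15, Uba7, Ube2l6 and Usp18 are highest at 24 h in the line labelled knockdown and next highest at 24 h in control, while both Herc6 probes are lowest at 24 h in control.

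Isg15, the modifier itself, rose in both lines and ended higher in the line labelled knockdown. The probe that stands for the gene (A_55_P2103698; mm9 chr4:155573649-155573708, minus strand) read 38.3 and 36.2 at 24 h in the line labelled knockdown, against 2.70 and 2.40 at 0 h. Control arrays read 8.29 and 7.48 at 24 h, against 3.32 and 3.28 at 0 h. All 4 groups were separate, with the line labelled knockdown lowest at 0 h and highest at 24 h. The induction was 3.87 ± 0.09 in the line labelled knockdown, with adjusted p = 1.6e-06, and 1.25 ± 0.09 in the control line (adjusted p = 8.4e-05). The line labelled knockdown was 4.73-fold above control at 24 h (95% interval 4.06 to 5.51, adjusted p = 5e-04), the change of rank 55 by size among the 16153 genes. At 0 h it was at 77.1% of control (-0.38, adjusted p = 0.048), which falls short of the 2-fold limit, and that p was 0.072 to 0.17 when any 1 array was left out. The difference of induction was 2.62 ± 0.12, or 6.14-fold (adjusted p = 0.0015).

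A second Isg15 probe (A_66_P128537, on the same chromosome and strand, listed at 155573533-155573552) gave the same order of groups. It read 2.54 and 2.53 at 24 h in the line labelled knockdown, against 0.159 and 0.158 at 0 h, and 0.522 and 0.495 at 24 h in control, against 0.238 and 0.227 at 0 h. Its difference of induction was 2.87 ± 0.08 (adjusted p = 0.00065). At 0 h it was at 68.1% of control (adjusted p = 0.0064).

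Uba7, the activating enzyme, which uses ISG15 and not ubiquitin, began lower in the line labelled knockdown and ended higher. Its probe (A_55_P2026233; mm9 chr9:107886328-107886387, plus strand) read 11.6 and 13.2 at 24 h in the line labelled knockdown, against 1.93 and 1.99 at 0 h. Control arrays read 7.26 and 7.19 at 24 h, against 3.34 and 3.11 at 0 h. The 4 groups did not overlap. The induction was 2.66 ± 0.08 in the line labelled knockdown, with adjusted p = 4.1e-06, and 1.17 ± 0.08 in control (adjusted p = 9.1e-05). At 24 h the line labelled knockdown was 1.71-fold above control (adjusted p = 0.0063) and at 0 h it was at 60.8% of control (adjusted p = 0.0076), both short of 2-fold. Neither held under every setting. The adjusted p was 0.17 at 24 h and 0.26 at 0 h under median scaling. Without the filter on dim probes it was 0.064 at 24 h and 0.075 at 0 h. The difference of induction, 1.49 ± 0.12 or 2.82-fold (adjusted p = 0.0042), thus joined a lower start and a higher end. It was 1.35 with an adjusted p of 0.066 when arrays were scaled to their median.

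Ube2l6, the conjugating enzyme, had a similar course at a level around the 75th percentile. Its probe (A_55_P2031125; mm9 chr2:84649861-84649920, plus strand) read 4.49 and 4.20 at 24 h in the line labelled knockdown, against 0.729 and 0.784 at 0 h. Control arrays read 1.85 and 1.92 at 24 h, against 0.822 and 0.951 at 0 h. The groups at 24 h were separate by a wide margin, and those at 0 h by a narrow one. The induction was 2.52 ± 0.09 in the line labelled knockdown, with adjusted p = 6.9e-06, and 1.09 ± 0.09 in control (adjusted p = 0.00018). The control value lay just past the 2-fold limit and was 0.98, below it, under median scaling or without the first control array at 0 h. At 24 h the line labelled knockdown was 2.31-fold above control (adjusted p = 0.0028), and at 0 h it was at 85.5% (adjusted p = 0.17). The difference of induction was 1.43 ± 0.13, or 2.70-fold (adjusted p = 0.0057), with an adjusted p of 0.057 under median scaling and 0.059 without the filter on dim probes.

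Herc6, the ligase, did not follow the other members. The probe that stands for it (A_52_P64514; mm9 chr6:57568608-57568667, plus strand) read 0.272 and 0.274 at 24 h in the line labelled knockdown, against 0.256 and 0.272 at 0 h. In the control line it read 0.133 and 0.141 at 24 h, against 0.239 and 0.238 at 0 h. The control arrays at 24 h were the lowest, and the other 3 groups lay close together. The induction in the line labelled knockdown was 0.05 ± 0.06 (95% interval -0.11 to 0.20, adjusted p = 0.52), and its sign turned, to between -0.20 and -0.05, under median scaling and all 3 quantile-normalized versions. In the control line Herc6 was at 57.5% of its 0 h level (-0.80 ± 0.06, adjusted p = 0.00013), short of 2-fold. At 24 h the line labelled knockdown stood 1.99-fold above control (adjusted p = 0.0016), just short of the limit, and it was past it at 1.01, 1.04 or 1.12 on the log2 scale with quantile normalization, without the second control array at 24 h, or with the mean of both probes. The difference of induction was 0.85 ± 0.09, or 1.80-fold (adjusted p = 0.0075). It was 0.70 under median scaling (adjusted p = 0.35) and 0.54 in the deposited value table (adjusted p = 0.032). Without the filter on dim probes its adjusted p was 0.091.

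The second Herc6 probe (A_52_P679860; mm9 chr6:57612406-57612719, a span of 314 bases for a probe of 60) gave larger values. It read 0.250 and 0.244 at 24 h in the line labelled knockdown, against 0.183 and 0.185 at 0 h, and 0.0932 and 0.115 at 24 h in control, against 0.185 and 0.197 at 0 h. The probes thus shared the drop in the control line (-0.88 ± 0.11 here, adjusted p = 0.00086) and differed in the line labelled knockdown, where this one gave 0.43 ± 0.11 (adjusted p = 0.015), under the 2-fold limit. With it, the 24 h contrast (1.25, adjusted p = 0.004) and the difference of induction (1.31 ± 0.15, adjusted p = 0.01) were called.

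Usp18, the protease that removes ISG15 and a brake on the interferon receptor, had the largest changes of the 5 members in both inductions and at 24 h. Its probe (A_55_P2114953; mm9 chr6:121220874-121220933, plus strand) read 5.22 and 5.18 at 24 h in the line labelled knockdown, against 0.0385 and 0.0480 at 0 h. In the control line it read 0.710 and 0.658 at 24 h, against 0.0471 and 0.0426 at 0 h. The 0 h arrays of the lines overlapped, and the 24 h arrays did not. The induction was 6.92 ± 0.12 in the line labelled knockdown, with adjusted p = 9e-07, and 3.93 ± 0.12 in control (adjusted p = 4.7e-06). The processed signal at 0 h was only 40.0 and 68.9 intensity units in the line labelled knockdown and 47.6 and 51.9 in control, and under the normexp background correction with an offset of 50 the induction was 5.66 in the line labelled knockdown and 2.77 in control. At 24 h the line labelled knockdown was 7.61-fold above control (95% interval 6.17 to 9.39, adjusted p = 0.00061), rank 20 by size among all genes. This fold does not use the dim 0 h values, but its interval and p do, through the error pooled over all groups. At 0 h the lines differed by -0.06 ± 0.12 (95% interval -0.36 to 0.24, adjusted p = 0.80), a value whose sign turned under median scaling, under quantile normalization of the processed signal and without the first 0 h array of either line. The difference of induction was 2.99 ± 0.17, or 7.93-fold (adjusted p = 0.0022), rank 50 by size.

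**Figure D3:**
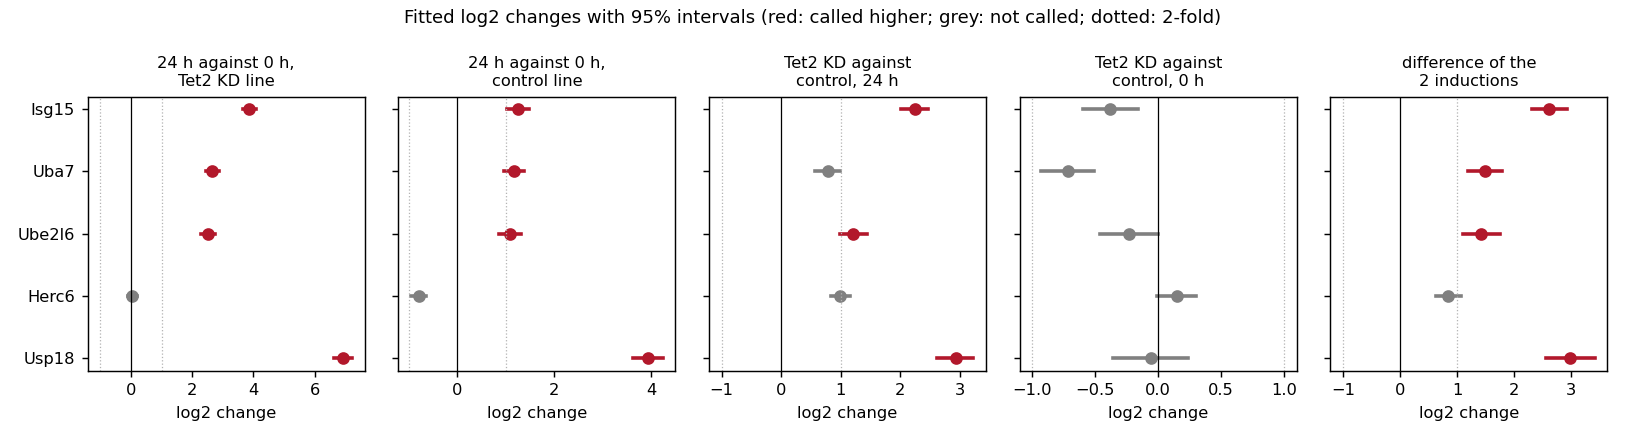
Fitted log2 change (points) with its 95% interval (bars) for the 5 members in the 5 comparisons, with dotted lines at 2-fold. Red is called higher and grey is not called. Usp18 and Isg15 are red in every panel but that for 0 h, where all 5 members are grey. The sign of Herc6 in the first panel (0.05) turned under median scaling, under both quantile normalizations and in the deposited value table, and that of Usp18 at 0 h (-0.06) under median scaling, quantile normalization of the processed signal and without the first 0 h array of either line.

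All arrays of replicate 1 lay on 1 slide and all of replicate 2 on the other, so each slide held all 4 groups. Within slides 1 and 2 the difference of induction was 2.51 and 2.73 for Isg15, 1.47 and 1.52 for Uba7, 1.45 and 1.41 for Ube2l6, 0.94 and 0.76 for Herc6 and 3.17 and 2.80 for Usp18. With the slide as a block the adjusted p was 0.0024 for Isg15, 0.0066 for Uba7, 0.0072 for Ube2l6, 0.0073 for Herc6 and 0.005 for Usp18. At 24 h, the line labelled knockdown exceeded control within slides 1 and 2 by 2.88 and 2.98 for Usp18, 2.21 and 2.28 for Isg15, 1.28 and 1.13 for Ube2l6, 1.04 and 0.95 for Herc6 and 0.68 and 0.88 for Uba7. The direction was the same on both slides for every member in these comparisons.

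**Figure D4:**
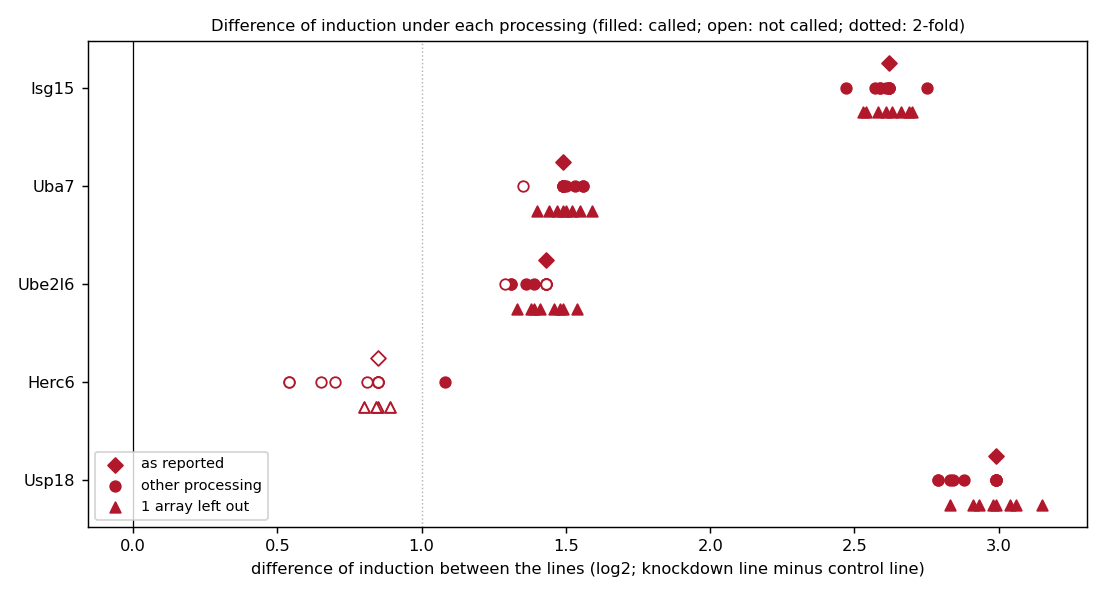
Difference of induction between the lines (log2, line labelled knockdown minus control) for each member under the reported processing (diamond), other processing (circles) and with 1 array left out (triangles). Filled marks are called, open marks are not, and the dotted line is 2-fold. Isg15 (2.47 to 2.75 under other processing) and Usp18 (2.79 to 2.99) are filled throughout, Uba7 and Ube2l6 are open at 1.35 and 1.29 with median scaling, Ube2l6 is also open at 1.43 without the filter on dim probes, and Herc6 is open except with the mean of its probes (1.08).

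As a measure of likeness over the 8 arrays, each gene's log2 values were centred on their own mean and set against those of every other gene by the root mean square (RMS) difference, which counts the size of changes as well as their shape. Uba7 and Ube2l6 were the closest pair of members (RMS 0.26), and Isg15 was 0.54 from Ube2l6 and 0.63 from Uba7. Usp18 was 1.46 from Isg15, its nearest member, and Herc6 was 1.10 to 2.98 from the other members. The genes nearest to Isg15 were Trim30c (0.28), Lgals3bp (0.30), Oas1g (0.31), C4b (0.32) and Meig1 (0.32), of which Oas1g encodes an oligoadenylate synthetase of the interferon response and C4b a complement component. Trim30c and Meig1 were well above background only on the 24 h arrays of the line labelled knockdown. Nearest to Uba7 were Armc3 (0.07) and Il17rd (0.13), and to Ube2l6 Pmaip1 (0.12), which encodes the cell-death protein NOXA, and Ifi204 (0.12), an interferon-inducible gene. Tspyl4 (0.06) and Asb13 (0.11) were nearest to Herc6, and Oasl2 (0.48), another gene of the oligoadenylate synthetase family, was nearest to Usp18, followed by a transcript with no gene name (0.50). Trim30c, Oas1g, C4b, Ifi204 and Oasl2 have close paralogs that their probes may not tell apart. The points share their arrays and scaling, so these distances are descriptions.

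The receptor and ISGF3 genes, which lie upstream of ISG15 in interferon signalling, mostly rose with induction in both lines. Of 6 described here, 5 rose in the line labelled knockdown, against 16.7% of all genes, with a median log2 change of 1.61. In control 4 rose, against 14.2% of all genes, with a median of 1.54. The receptor chains rose by 1.55 (Ifnar1) and 1.67 (Ifnar2) in the line labelled knockdown and by 1.71 (Ifnar1) and 1.37 (Ifnar2) in control, and neither chain was called different between the lines. Jak1, at 0.45 in the line labelled knockdown and 0.56 in control, was called in neither, and Tyk2 rose by 1.23 in the line labelled knockdown and was 0.80, short of 2-fold, in control. The difference of induction was called for 2 of the 6 genes, Stat2 and Irf9, against 2.36% of all genes called higher. Since the list was chosen with results of these data known, these counts describe it and do not test it. Stat2 rose by 3.45 on the log2 scale in the line labelled knockdown and by 2.06 in control, with a difference of 1.39 ± 0.07 (adjusted p = 0.0017), and was 2.04-fold above control at 24 h (adjusted p = 0.001). Irf9 rose 13.4-fold in the line labelled knockdown and 6.16-fold in control, with a difference of 1.12 ± 0.12 (adjusted p = 0.0075), and was 1.90-fold above control at 24 h, short of 2-fold.

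Interferon genes themselves gave no call. Of 19 on the list, 7 were tested and 8, with Ifnb1, Ifna4 and Ifng among them, had no probe that passed the filter on dim probes. In the limma fit none of the 7 was called in any comparison, 0 had an unadjusted p under 0.05, and their median difference of induction was 0.32 (range -0.92 to 1.26). Among all genes, 16.7% and 14.2% were called higher in the 2 inductions, 1.04% at 24 h and 2.36% for the difference. A list of 7 may hold no call at such shares, so no lack of change in interferon transcripts is read from it. Genes of the Ifna family are near-identical copies, so their probes are uncertain.

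Among other genes reported to attach or remove ISG15, 11 were tested. Of these, none was called higher in any comparison and 1 was called lower, Usp2 in the control induction (-1.03, adjusted p = 0.00027), which encodes a ubiquitin protease able to act on ISG15. Their median difference of induction was -0.14, and none was called for it (5 had an unadjusted p under 0.05), which with 2.36% of all genes called higher is no result about the list. Trim25, a RING ligase that modifies other proteins with ISG15 or ubiquitin, was short of a call in both inductions, with 0.93 in the line labelled knockdown and 0.59 in control (difference 0.34, adjusted p = 0.062). Herc2, a large relative of Herc6, gave a difference of the opposite sign (-0.72 ± 0.09, adjusted p = 0.0092), short of 2-fold. Itgal and Itgb2, the subunits of LFA-1, the integrin through which secreted ISG15 acts on lymphocytes, rose in both lines, by 4.40 and 3.16 on the log2 scale in the line labelled knockdown and by 3.91 and 3.52 in control. Neither was called different between the lines, although Itgb2 at 24 h was at 0.502 of control (adjusted p = 0.0017).

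The same layers of the ubiquitin system outside ISG15 were described for their inductions. Of 18 other ubiquitin-like modifiers, the line labelled knockdown had 3 that rose and 1 that fell, and control had 2 that rose and none that fell. Shares over all genes, for the same 2 inductions, were 16.7% and 14.2% called higher and 15.4% and 13.1% called lower. The modifiers that rose (16.7% and 11.1%) came close to the former, and fewer than the latter share fell. The all-gene shares also stand beside the E1 and E2 counts below, and lists this short do not test a departure from them. The autophagy modifier Map1lc3a rose by 2.35 in the line labelled knockdown and 1.71 in control, and its relative Gabarap by 1.88 in the line labelled knockdown and 1.59 in control. Map1lc3b rose (1.04) and Sumo2 fell (-1.22) in the line labelled knockdown. Of 8 other E1 enzymes, the line labelled knockdown had 1 that rose and 3 that fell, and control had 1 that rose and 2 that fell. Both subunits of the SUMO-activating enzyme fell, Sae1 by 1.84 in the line labelled knockdown and 1.65 in control, and Uba2 by 1.47 in the line labelled knockdown and 1.24 in control. Atg7, the autophagy E1, rose by 1.14 in the line labelled knockdown and 1.31 in control. Nae1, a subunit of the NEDD8-activating enzyme, fell by 1.17 in the line labelled knockdown. Of 18 other E2 enzymes, 3 fell in each line. Ube2c and Ube2s, which serve the anaphase-promoting complex in mitosis, gave -3.94 and -1.45 in the line labelled knockdown and -3.65 and -1.22 in control. Ube2t, of the Fanconi pathway, was at least 8.01-fold lower at 24 h in the line labelled knockdown and at least 6.58-fold lower in control. Ube2l3, the closest relative of Ube2l6, gave 0.32 in the line labelled knockdown and 0.30 in control, with a difference of 0.02 ± 0.10 (adjusted p = 0.90). Median differences of induction were 0.13, -0.19 and -0.17 for the modifiers, E1 and E2 enzymes, and no gene of the 3 lists was called at 24 h, at 0 h or for the difference (for the difference, 8 modifiers, 2 E1 and 6 E2 enzymes had an unadjusted p under 0.05). With 1.04% of all genes called higher at 24 h and 2.36% for the difference, a list of this size may hold no call, and nothing is read from that. The lists were chosen with results of these data known.

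**Figure D5:**
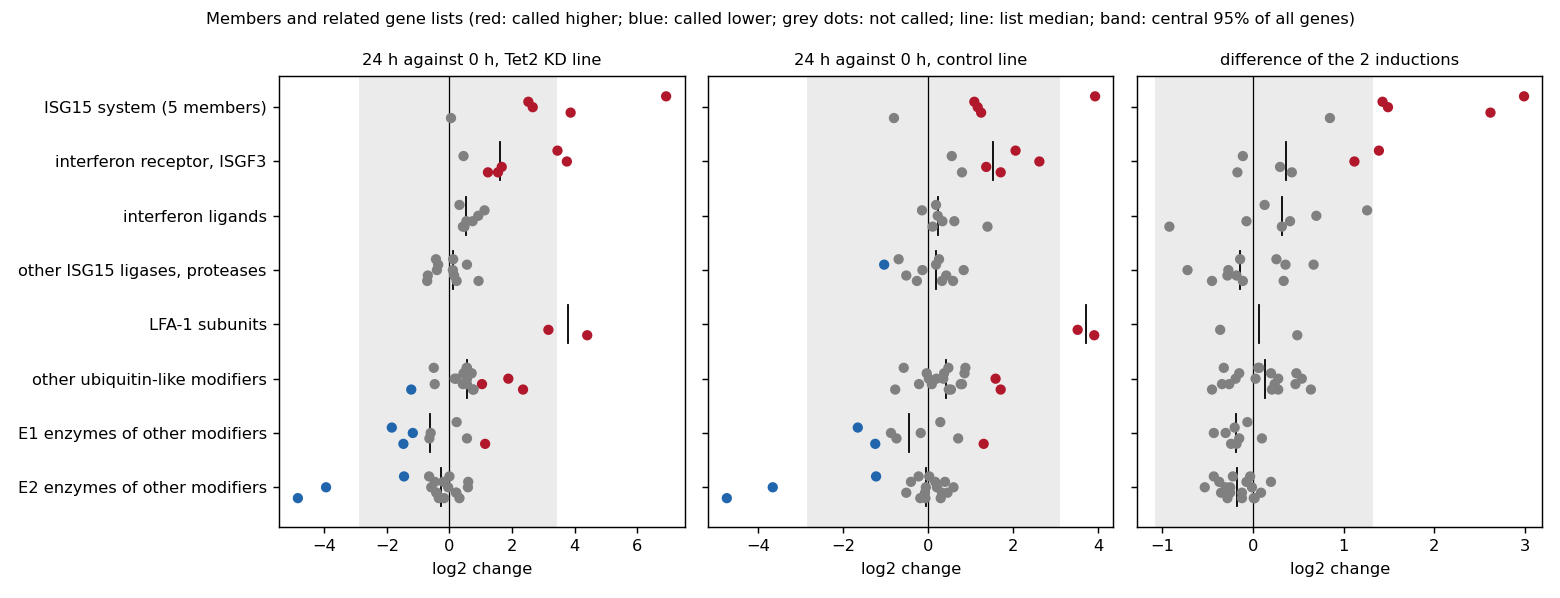
Log2 changes of the 5 members and of 7 related gene lists for the induction in each line and for the difference of the inductions. Each point is a gene (red called higher, blue called lower, grey not called), the black line is a list's median, and the band is the central 95% of all genes (-1.07 to 1.31 for the difference). In the right panel the red points are 4 members and, on the receptor and ISGF3 row, Stat2 and Irf9. The members' grey point (Herc6) is 0.05 in the left panel, a sign that turned under median scaling and quantile normalization.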

How the data were processed

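Total RNA (500 ng) was amplified and labelled with Cy3, per the labels' protocols. Per the file headers, 1-colour Agilent arrays of design 026655 (probe positions on mm9) were extracted with Feature Extraction 10.7.3.1, and the deposited intensity is background-subtracted and detrended. The authors' value table is on the log2 scale, with a median of 6.84 on every array. A normexp (offset 50) and quantile recomputation matched it at r of at least 0.999999.

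Each processed signal was divided by its array's 75th percentile (722 to 1435 units) and taken to log2. The lowest percentiles, 722 and 896 units, were those of the 24 h arrays of the line labelled knockdown. Outlier spots were dropped and spots of a probe averaged. Probes well above background on both arrays of 1 or more groups were kept (47.4% to 55.6% of spots per array passed that mark), and the brightest kept probe stood for its gene. limma 3.58.1 (R 4.3.3) fitted 4 group means (4 residual, 1.51 prior degrees of freedom), tested on simulated data first. The number of arrays limits the precision. Deviations of same-numbered arrays, which shared a slide per the file headers, correlated at 0.30 to 0.41 over 6 group pairs, so the numbers pair the arrays.

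Named genes were the members, every gene called on the related lists (up to 6 a list and comparison) and the nearest in profile. Members and lists were chosen with earlier results of these data known. Some genes of the related lists are not reported here.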

Additional observations from a re-analysis of the deposited data

Results flagged for a closer look

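For 4 members the direct test of the difference between the inductions of the lines was past the threshold, so that the induction in the line labelled knockdown was larger than that in the control line. The difference was 2.62 for Isg15, 1.49 for Uba7, 1.43 for Ube2l6 and 2.99 for Usp18 on the log2 scale. Under median scaling the test was past the threshold for Isg15 and Usp18 but not for Uba7 (adjusted p = 0.066) or Ube2l6 (adjusted p = 0.057), and without the filter on dim probes it was not past it for Ube2l6 (adjusted p = 0.059).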

How the results depend on the processing

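Of the members' values under other settings, 433 kept direction and side of the threshold, 5 lost a call, 4 gained one and 8 changed sign. Some settings could not change an estimate, so these counts do not measure stability. Leaving out an array outside a comparison, or blocking on the slide, left the estimate as it was. The deposited table repeated the values of normexp with quantile normalization. Usp18 and Isg15 stayed called in both inductions, at 24 h and for the difference under every setting run. The sign changes were the Herc6 induction in the line labelled knockdown (-0.2 with median scaling, -0.06 with quantile normalization, -0.05 with normexp and quantile normalization and with the deposited table) and Usp18 at 0 h (0.02 with median scaling, 0.04 with quantile normalization of the processed signal, -0.22 to 0.1 with 1 array left out, above 0 without the first control array, 0.01, or the first array of the line labelled knockdown at 0 h). The cause was not tested. Median scaling moved the all-gene median of the induction in the line labelled knockdown to -0.11, against 0.14, and left 2 members called for the difference of induction. It gave 2172 genes higher and 3386 lower in that induction (39.1% higher, against 52%), and 102 and 110 for the difference (48.1%, against 61.8%). Under normexp with the 75th percentile, 74.1% of calls for the difference and 6.06% at 0 h were higher. The share at 0 h was 19.4% as reported. Outside the members, Actb and Gapdh differed between the lines at 24 h by 0.38 and 0.32 as reported. They gave 0.31 and 0.25 under median scaling and -0.03 and -0.01 with quantile normalization of the processed signal. In the same order of settings Uba7 gave 0.78, 0.71 and 0.78 at 24 h, and Herc6 0.99, 0.93 and 1.01.

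Without a fold limit, 11016, 9989, 2236, 2177 and 2626 genes were called in the knockdown-labelled induction, the control induction, at 24 h, at 0 h and for the difference, against 5194, 4408, 329, 279 and 617, by construction, with 5 members called at 24 h and 2 at 0 h. Genes called at 24 h were 154 (normexp, 75th percentile), 163 (normexp with quantile, and the deposited table), 187 (no filter) and 147 (well above background on all 8 arrays, which tests fewer genes). At 0 h they were 99, 94 and 94 under these 3 normexp-based values and 157 with all 8 arrays above background. For the difference they were 282, 289 and 289 under the same 3, 212 with median scaling, 121 with no filter and 372 with all 8 arrays. Leaving out each array gave 5000 to 5257, 4296 to 4415, 235 to 337, 241 to 301 and 412 to 646 genes, and 4, 3 to 4, 3 to 4, 0 and 4 members. With the replicate number (slide) as a block the difference of induction of Isg15 was 2.62 (adjusted p = 0.0024), and the block changed no call of a member and no count by over 1.5 times. Duplicate arrays measure no variation between cultures, and dim probes such as Usp18 at 0 h limit the size of a fold.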
